A study of Mus musculus with 6 samples.

Results

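Raver2 knockdown was compared directly with Setd2 knockdown in medullary thymic epithelial cells (mTECs), using 4 of the 6 libraries of the study. A library entered by its label: the 2 libraries with a hairpin against Raver2 (sh1 and sh2) on one side and the 2 with a hairpin against Setd2 (sh1 and sh2) on the other. Primary mouse mTECs, gated as CD45- EpCAM+ Ly51- I-A/E+, were laid on a fibrin gel that held human dermal fibroblasts. They were infected with a lentivirus that carried a short hairpin RNA and a GFP reporter. After 5 days the gel was taken apart, live cells with the reporter (DAPI- GFP+, and I-A/E+ for MHC class II) were sorted, and their RNA was sequenced. The remaining 2 libraries carried a hairpin against bacterial LacZ (Ctr). They took no part in the test, and their fractions are given beside the events as values without a test. The sources used here give no strain or age, and leave unsaid whether both libraries of a target came from separate animals or cultures. The spread within a target includes the difference between its hairpins. The p-values rest on spread between libraries alone, part of which may be technical. The test of single events takes part of that spread from other events of similar mean inclusion.

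Raver2 encodes an RNA-binding protein that partners with the polypyrimidine tract binding protein PTB (gene Ptbp1), a repressor of exon inclusion. Setd2 encodes the enzyme that trimethylates lysine 36 of histone H3 along the bodies of transcribed genes, a mark that is read by adaptor proteins and has been linked to the recruitment of PTB to nascent RNA. In mTECs, which display antigens of other tissues to developing T cells, alternative splicing adds to the range of protein segments on display. The study asked how each knockdown alters splicing of genes that depend on the regulator Aire and of genes that do not. The direct comparison asks where the knockdowns differ from each other.

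Each value was an inclusion frequency, the fraction (0 to 1) to which an alternative splicing event was included, as deposited by the authors. How it was computed is not known here. Each of the 4 tables held 4777 to 4884 events, in 2765 to 2825 genes. Of 2879 genes listed in any of them, 2709 were in all 4, and 2703 of these had the same number of events in each. These 2703 genes, with 4679 events, were compared, and 176 genes were not. An event is known by its gene and its order within the gene, not by its exon, so its sequence is not shown here and a position below is that of the gene. A single event was listed for 1693 genes, and 1010 genes had several, up to 15. The depth behind each fraction is unknown, so a fraction at the end of the scale may rest on many reads or on few. In 2428 events (51.9%) at least 1 of the 4 libraries lay below 0.01 or above 0.99, called the end of the scale here. The other 2251 events (48.1%) are called mid-range. Both classes use the same fractions that are compared, so an event that switches fully is an end-of-scale event by definition.

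Neither target could be checked. No event of Raver2 or Setd2 was listed in any of the 4 libraries, nor of the relatives Raver1, Ptbp2 and Ptbp3, and inclusion carries no expression level. The labelled cell type could not be checked either: events were listed for 3 of 12 mTEC markers (Aire, Cd74 and Cd40), 2 of 10 fibroblast markers (Fn1 and Postn) and 4 of 10 leukocyte markers (Ptprc, Cd8a, Lck and Cd68). A fraction of a bulk library averages over all sorted cells, so a different mix of cells and a different choice of splice form within a cell cannot be told apart.

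Libraries of different targets were about as unlike as libraries of the same target. The Raver2 hairpins differed by more than 0.1 in 22.9% of events and the Setd2 hairpins in 25.5%. Between a Raver2 and a Setd2 library the share was 24.6% to 26.3%. Differences above 0.5 were found in 6.45% of events between the Raver2 hairpins, in 7.44% between the Setd2 hairpins and in 6.88% to 7.44% between targets. The hairpins of Raver2 lay more than 0.9 apart in 165 events and those of Setd2 in 178. The bars by pair of libraries show that all 4 pairs between targets exceeded the Raver2 pair (22.9%) at the 0.1 limit. The 2 pairs that hold Setd2 sh2 (25.9% and 26.3%) also exceeded the Setd2 pair (25.5%), by less than 1 percentage point.

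**Figure D1:**
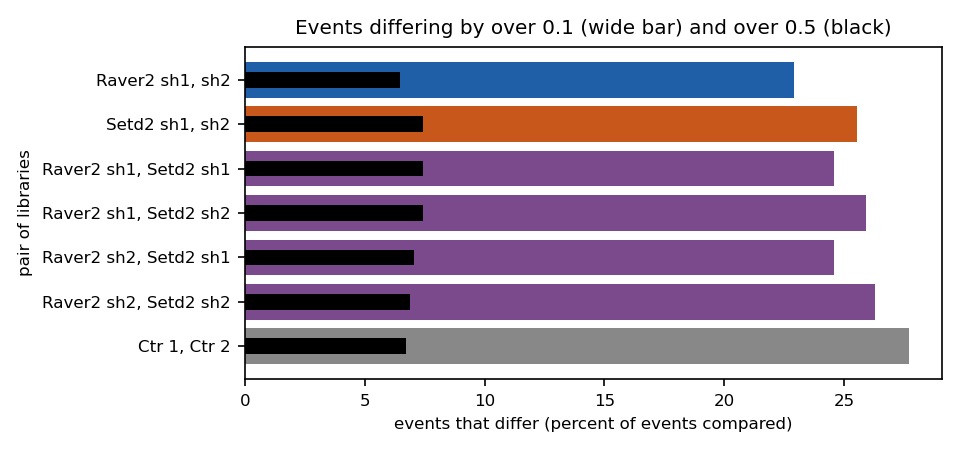
Share of events (percent, x axis) whose inclusion differs by more than 0.1 (wide bars) or more than 0.5 (narrow black bars) between a pair of libraries (y axis). Pairs of different targets (24.6% to 26.3% for the wide bars) lie close to the pairs of the same target (22.9% and 25.5%); the Ctr pair is at 27.7%.

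Mean inclusion over all events did not separate the targets beyond what this design can show. It was 0.4495 and 0.4515 in the Raver2 libraries and 0.4484 and 0.4413 in the Setd2 libraries. Both Raver2 libraries lay above both Setd2 libraries, and the difference was 0.00566 (exact permutation test, two-sided, p = 0.333, the smallest that 6 assignments allow). Fractions between 0.01 and 0.99 made up 65.5% and 66.9% of events in the Raver2 libraries and 64.1% and 61.2% in the Setd2 libraries (exact p = 0.333). Over mid-range events alone the difference of the means turned to -0.000976. The Raver2 libraries thus had fewer fractions at the end of the scale, and Setd2 sh2, which listed the fewest events, had the most. The part of this difference in the results below was not tested.

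Across all events, 46 events in 37 genes differed between the knockdowns (limma on 4 libraries, adjusted p under 0.05; 0.983% of 4679 events). Inclusion was higher under Raver2 knockdown in 20 events of 17 genes (0.427%) and lower in 26 events of 22 genes (0.556%), with Rnf32 and Rtn3 in both. The Rtn3 calls are complements (event 6 is 1 minus event 1 in each library) and count once in each direction. In 31 of the 46, from 23 genes, the targets lay more than 0.9 apart, with an event almost always included under one knockdown and almost never under the other: 15 of these were higher and 16 lower under Raver2 knockdown. Over all events, called or not, the means of the targets lay more than 0.9 apart in 38. The hairpins of a target lay that far apart more often, in 165 events for Raver2 and 178 for Setd2. Whether full switches between targets exceed the number that values unrelated to the target would give was not tested. All but 1 of the 46 were end-of-scale events (1.85% of those events), and Ranbp3 was the only mid-range call (0.0444%). In the scatter of the targets' means most calls sit in the 2 corners of the plot. The median absolute difference over all events was 0.0260, and 64.0% of events differed by less than 0.05.

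**Figure D2:**
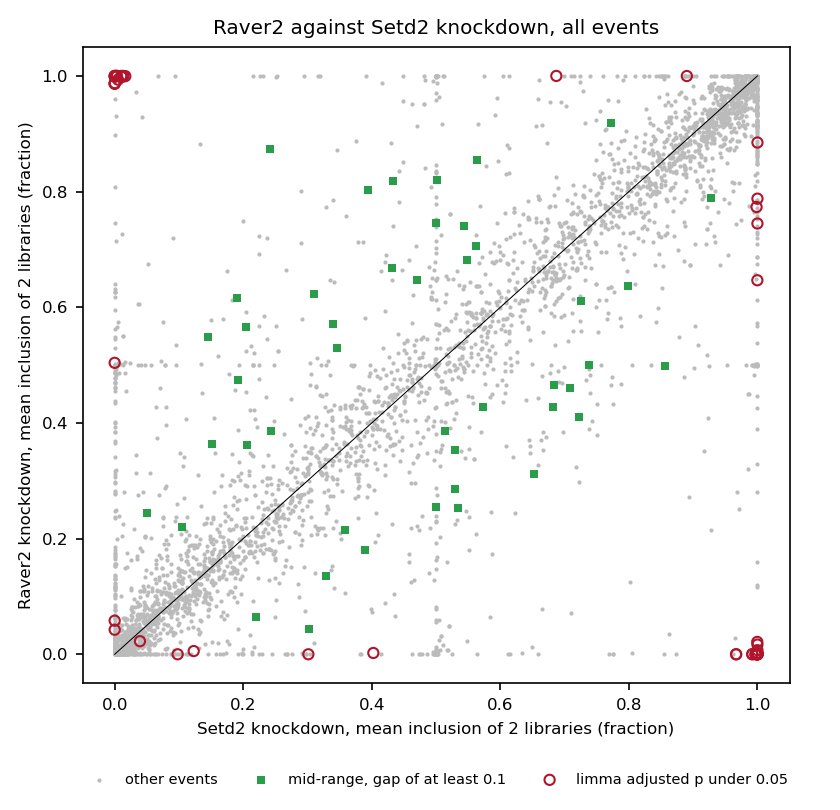
Mean inclusion (fraction) of the 2 Setd2 libraries (x axis) and of the 2 Raver2 libraries (y axis) for all 4679 events. Red rings mark the 46 events with an adjusted p under 0.05, green squares the 48 mid-range events whose targets lie at least 0.1 apart, and the line marks equal inclusion. Most rings lie in the upper left and lower right corners.

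These calls stand at the edge of the threshold. All 46 share an adjusted p of 0.0499, and the next events, Casc4 event 2, Rad52 event 1 and events of Gm3286, have 0.0511. An unadjusted p under 0.05 was reached by 324 events (6.92%). Limma called 0 events without Setd2 sh1 (588 with an unadjusted p under 0.05, smallest adjusted p 0.0583) and 0 without Setd2 sh2 (535 and 0.0524). It called 149 without Raver2 sh1 and 133 without Raver2 sh2. Of the 46 events, 8 were called in each of the latter fits: Cd247 event 3, Zpbp, Daam1 event 2, Arhgef40 event 2, Ubox5 event 2, Prnd event 2, Rad52 event 2 and A730082K24Rik. With events that repeat an earlier event of their gene left out, 0 were called (307 with an unadjusted p under 0.05, smallest adjusted p 0.0539). That filter removes identical values only and keeps complements such as Rtn3 event 6. The genes below are described under that limit.

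Genes of the actin cytoskeleton and the cell cortex supplied some of the largest differences. Pdlim5 encodes a PDZ and LIM domain protein of actin filaments (chromosome 3, 142239590 to 142395696, minus strand, mm10). Its event 5 was below 0.01 in both Raver2 libraries and above 0.99 in both Setd2 libraries, a difference of -0.9999 ± 0.0433 (SE; limma, adjusted p = 0.0499). The hairpins of each target lay far closer than that error (SD 0.000104 for Raver2 and 2.97e-06 for Setd2), which the fit drew mainly from other events. Bnipl event 1 and Tlcd1 event 1 have the same error of 0.0433. The Ctr libraries, at 0.997 and above 0.99, lay with the Setd2 libraries. The other 5 events of Pdlim5 did not pass. For event 5 of Pdlim5 it was thus the Raver2 libraries that stood apart from the other 4.

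Ank1 encodes an ankyrin that ties the spectrin skeleton to the plasma membrane (chromosome 8, 22974844 to 23150497). Its event 1 showed the reverse: it was above 0.99 in both Raver2 and both Ctr libraries and at 0.00630 and below 0.01 in the Setd2 libraries. In event 5 of Ank1 both Raver2 libraries were above 0.99 and both Setd2 libraries below 0.01, and the Ctr libraries lay between, at 0.814 and 0.842. Of the 11 events of Ank1, 9 did not pass, and in events 3, 4, 8, 9 and 11 the Setd2 hairpins were at opposite ends of the scale. Ank1 was therefore a gene in which the hairpins of 1 target differed as widely as the targets.

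Espn encodes an actin bundling protein of sensory hair cells. Its event 3 was 0.0406 and 0.00214 under Raver2 knockdown and above 0.99 in both Setd2 libraries, with Ctr at 0.662 and above 0.99. Ehbp1, which links endocytic vesicles to actin (chromosome 11, 22005828 to 22342292, minus strand), was above 0.99 in both Raver2 libraries and below 0.01 in both Setd2 libraries. The Ctr libraries of Ehbp1 lay between, at 0.155 and 0.395. In 9 of the 46 called events both Ctr libraries lay between the ranges of the targets. In Espn event 3, Tssk4 event 2 and Zfp2 event 1, which are among these 9, 1 Ctr library was above 0.99, as were both libraries of a target.

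Other regulators of the cytoskeleton were called in both directions. Rhpn1, a scaffold protein (chromosome 15, 75704280 to 75715485), was above 0.99 in both Raver2 libraries and below 0.01 in the Setd2 and Ctr libraries. Event 2 of Arhgef40, a guanine nucleotide exchange factor (chromosome 14, 51984719 to 52006251), was 0.768 and 0.779 under Raver2 knockdown and above 0.99 in both Setd2 libraries, a difference of -0.225 ± 0.00614 (SE; limma, adjusted p = 0.0499). Its Ctr libraries were at 0.899 and 0.975. Event 2 of Daam1, a formin that nucleates actin filaments (chromosome 12, 71831078 to 71992333), had 0.752 and 0.737 under Raver2 knockdown and was above 0.99 in both Setd2 libraries. The Ctr libraries of Daam1 lay wide apart, at 0.827 and 0.254. In Arhgef40 and Daam1 the hairpins of a target lay close together and the difference between targets covered only part of the scale.

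Among genes best known from immune cells, Nfatc2, a transcription factor switched on by calcineurin (chromosome 2, 168476410 to 168601657, minus strand), was called in events 4 and 6. Both events were below 0.01 in both Raver2 libraries and at 0.970 and 0.964 in the Setd2 libraries. The Ctr libraries held both extremes, below 0.01 in one and 0.865 (event 4) and 0.871 (event 6) in the other. Event 2 of Nfatc2 ran the other way, at 0.944 and above 0.99 under Raver2 knockdown and 0.0301 and 0.0362 under Setd2 knockdown, without passing (limma, adjusted p = 0.0558). Cd247, which encodes the zeta subunit of the T cell receptor, had event 3 at 0.0552 and 0.0610 under Raver2 knockdown and below 0.01 in the Setd2 and Ctr libraries. Dcstamp, which is needed for the fusion of osteoclast precursors, had event 5 below 0.01 in both Raver2 libraries and above 0.99 in both Setd2 libraries, with Ctr at 0.637 and below 0.01.

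Metabolic genes in the calls were all lower under Raver2 knockdown. Pdp1, the phosphatase that activates pyruvate dehydrogenase (chromosome 4, 11958184 to 11966452, minus strand), was below 0.01 in both Raver2 libraries and above 0.99 in both Setd2 libraries, with Ctr above 0.99 and at 0.952. Alg11, a mannosyltransferase of N-glycan assembly (chromosome 8, 22060721 to 22071627), was 0.00274 and 0.0114 under Raver2 knockdown and above 0.99 in both Setd2 libraries. The Ctr libraries of Alg11 were at 0.919 and above 0.99. Tlcd1, a membrane protein linked to lipid composition, had event 1 below 0.01 in both Raver2 libraries and above 0.99 in the Setd2 and Ctr libraries. Pdp1, Alg11 and Tlcd1 thus had Ctr libraries near the Setd2 libraries.

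Acsm3, a mitochondrial acyl-CoA synthetase (chromosome 7, 119760923 to 119787513), differed over a smaller range. Its event 1 was below 0.01 in both Raver2 libraries and 0.292 and 0.311 in the Setd2 libraries, a difference of -0.301 ± 0.0109 (SE; limma, adjusted p = 0.0499). Event 2 of Acsm3 was 0.00390 and 0.000638 under Raver2 knockdown and 0.397 and 0.408 under Setd2 knockdown. In both events one Ctr library was below 0.01 and the other above 0.99, so the Ctr values span the whole scale.

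Genes of the nucleus, of DNA repair and of ubiquitin pathways gave several of the small, tight differences. Event 2 of Rad52, a recombination protein (chromosome 6, 119902698 to 119922828), was 0.0412 and 0.0437 under Raver2 knockdown and below 0.01 in the Setd2 and Ctr libraries, a difference of 0.0424 ± 0.00123 (SE; limma, adjusted p = 0.0499). Event 2 of Ubox5, a ubiquitin ligase with a U-box, was 0.886 and 0.884 under Raver2 knockdown and above 0.99 in both Setd2 libraries, with Ctr at 0.952 and above 0.99. Event 2 of Rcor3, a corepressor of the CoREST family (chromosome 1, 192098546 to 192138062, minus strand), was above 0.99 in both Raver2 libraries and 0.688 and 0.686 in the Setd2 libraries, a difference of 0.313 ± 0.00540. The Ctr libraries of Rcor3 event 2 were above 0.99 and at 0.812. Rcor3 event 1 lay the other way, at 0.208 and 0.299 under Raver2 knockdown and 0.485 and 0.582 under Setd2 knockdown, and did not pass (limma, adjusted p = 0.674).

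Ranbp3, a cofactor of nuclear export (chromosome 17, 56673294 to 56711764), was called on a difference of -0.0167 ± 0.000762 (SE; limma, adjusted p = 0.0499). Its event 1 was 0.0226 in both Raver2 libraries and 0.0391 and 0.0395 in the Setd2 libraries, with Ctr at 0.0210 and 0.0198. This difference is smaller than the median absolute difference over all events. Senp8, a protease for the ubiquitin-like protein NEDD8, was called in events 1 and 5: event 1 was 0.987 and above 0.99 under Raver2 knockdown and 0.0103 and below 0.01 under Setd2 knockdown. Rnf32, a RING finger gene, was called in 3 events, of which events 1 and 2 hold the same values. Event 1 of Rnf32 was above 0.99 and at 0.975 under Raver2 knockdown and below 0.01 in both Setd2 libraries, and event 3 was 0.00521 and 0.0283 against above 0.99. In all called events of Senp8 and Rnf32 the Ctr libraries lay more than 0.9 apart.

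Several called genes are known mainly from tissues other than the thymus. Tssk4, a kinase of developing sperm, had event 2 below 0.01 in both Raver2 libraries and above 0.99 in both Setd2 libraries, with Ctr at 0.996 and 0.622. Zpbp, a protein of the sperm acrosome (chromosome 11, 11279626 to 11462408, minus strand), was 0.642 and 0.652 under Raver2 knockdown and above 0.99 in both Setd2 libraries, a difference of -0.353 ± 0.00772 (SE; limma, adjusted p = 0.0499). Its Ctr libraries were split: 1 was above 0.99, as were the Setd2 libraries, and 1 lay between the targets, at 0.745. Ncam1, a neural cell adhesion molecule (chromosome 9, 49502136 to 49798925, minus strand), was below 0.01 in the Raver2 and Ctr libraries and 0.102 and 0.0939 in the Setd2 libraries.

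Kcnh1, a voltage-gated potassium channel, was above 0.99 in both Raver2 libraries and 0.00651 and 0.0138 in the Setd2 libraries. Muc15, a membrane mucin, was below 0.01 in both Raver2 libraries and above 0.99 in both Setd2 libraries. The Ctr libraries of Kcnh1 and of Muc15 held both extremes. Event 1 of Abi3bp, an extracellular matrix protein, was 0.975 and 0.997 under Raver2 knockdown and below 0.01 in both Setd2 libraries, with Ctr between, at 0.410 and 0.364. Event 2 of Prnd, which encodes the prion-like protein doppel, was 0.777 and 0.798 against above 0.99, with Ctr at 0.551 and above 0.99.

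Of the remaining called genes, Rtn3, a reticulon that shapes the endoplasmic reticulum (chromosome 19, 7425901 to 7483281, minus strand), was called in 2 opposite events. Event 1 of Rtn3 was below 0.01 under Raver2 knockdown and 0.997 and 0.996 under Setd2 knockdown, and event 6 was above 0.99 against 0.00274 and 0.00408. In every library event 6 was the complement of event 1, so these 2 calls rest on the same values. Bnipl, a relative of a BCL2-interacting protein, had events 1 and 2 with the same values, below 0.01 under Raver2 knockdown and above 0.99 under Setd2 knockdown, and Ctr at 0.318 and 0.778. Zfp2, a zinc finger gene, was above 0.99 in both Raver2 libraries and below 0.01 in both Setd2 libraries, with Ctr at 0.578 and above 0.99. Event 3 of Etl4 was above 0.99 in both Raver2 libraries and 0.893 and 0.888 in the Setd2 libraries. Rtn3, Bnipl and Zfp2 belong to the full switches, and Etl4 to the smaller differences.

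Further calls fell on predicted or unnamed genes and on Slc10a3-ubl4, which the list of solute carriers holds. A730082K24Rik was 0.504 in both Raver2 libraries and at 0 in both Setd2 and both Ctr libraries. C87499 was above 0.99 in both Raver2 libraries and below 0.01 in both Setd2 libraries, with Ctr at 0.523 and 0.474. Event 2 of Slc10a3-ubl4 was above 0.99 in both Raver2 libraries and 0.000456 and 0.0263 in the Setd2 libraries, with Ctr below 0.01. Events 1 and 2 of 4931409K22Rik, which share their values, were below 0.01 in the Raver2 and Ctr libraries and at 0.984 and above 0.99 in the Setd2 libraries.

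**Figure D3:**
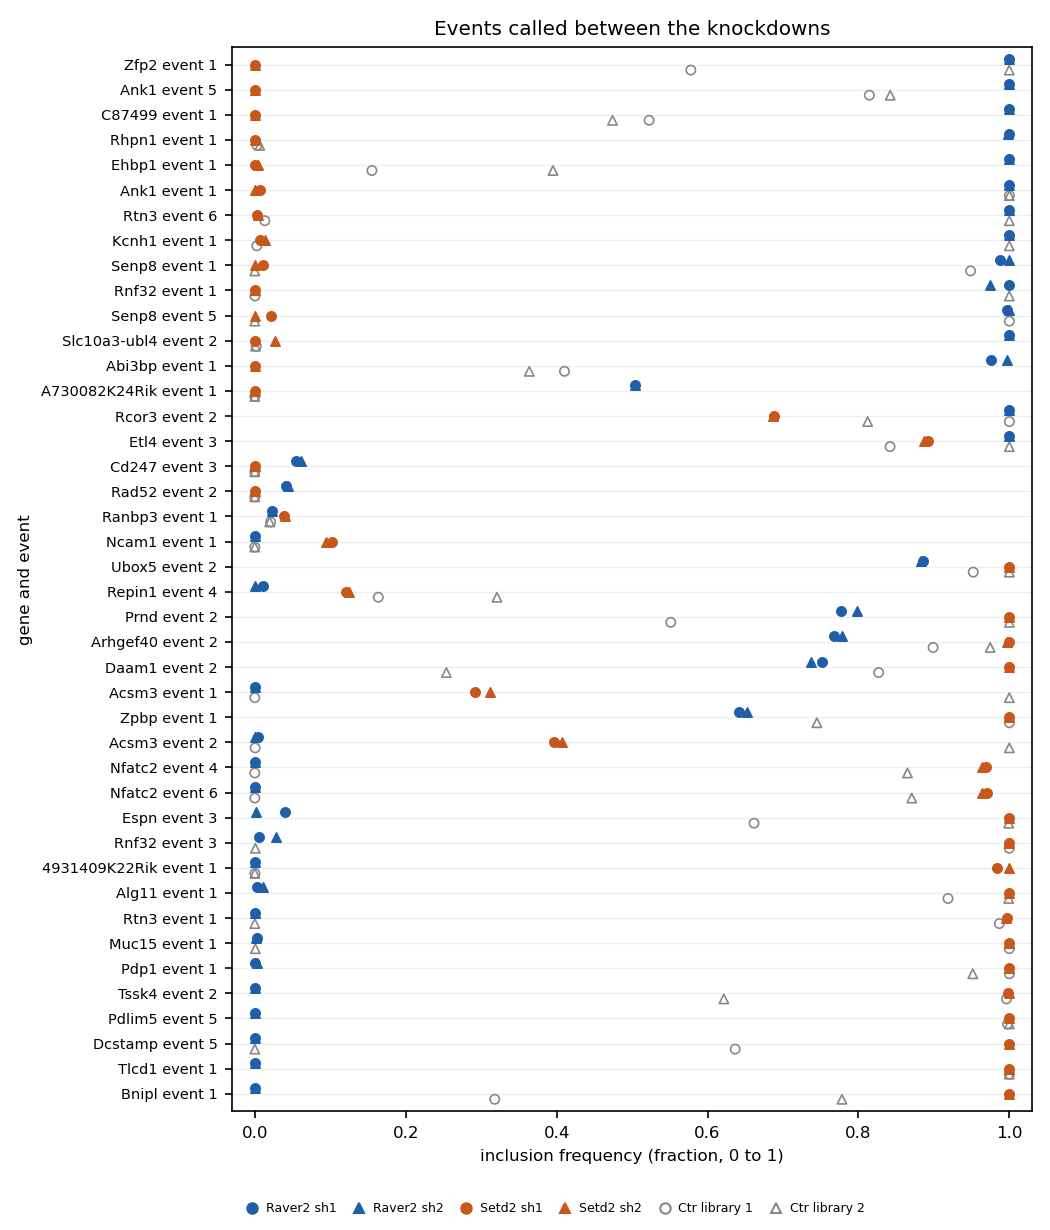
Inclusion frequency (fraction, x axis) of the called events (y axis; repeats of an earlier event of the gene and 1 event not reported here are left out) in each library. Filled blue symbols are Raver2 knockdown, filled orange symbols Setd2 knockdown and open grey symbols Ctr. The hairpins of a target lie close together in every row, while the Ctr symbols lie more than 0.5 apart in 15 of the 46 called events.

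The Ctr libraries lay far apart at many of the called events. They were more than 0.5 apart in 15 of the 46 called events (32.6%), against 6.72% of the 4658 events with Ctr values, and more than 0.1 apart in 26 (56.5%), against 27.7%. These shares are of unlike sets, since 45 of the 46 calls were end-of-scale events, against 51.9% of all events compared. Rnf32, Rtn3, Acsm3, Nfatc2 and Senp8 each gave several of the 15, with repeated values in Rnf32 and complements in Rtn3. Of the 46, 10 had Ctr near Setd2 knockdown and away from Raver2 knockdown, 3 had Ctr near Raver2 knockdown only, 4 had Ctr near both and 9 had Ctr between, where near means that both Ctr libraries lay no more than 0.1 outside the range of the target. In the rest the Ctr libraries were more than 0.5 apart (15) or in none of these places (5). The call itself needs hairpins with close values, and no such condition was set on the Ctr libraries. Whether the difference between the Ctr libraries has a part in these calls was not tested.

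A rule of size, which uses no estimate of variance, was applied beside the test. It asks that both libraries of a target lie above both of the other with at least 0.1 between the nearest. Groups did not overlap at all in 1580 events (33.8% of those compared), 718 with Raver2 knockdown higher (15.3%) and 862 lower (18.4%). That share is near the 0.333 given by 2 of the 6 assignments when labels carry no information, so it is not a result about the knockdowns. With the gap of at least 0.1, 234 events in 181 genes remained (5.0%), of which 114 were higher (2.44%) and 120 lower (2.56%) under Raver2 knockdown. The share was 7.66% at the end of the scale (186 events) and 2.13% in mid-range (48 events in 41 genes). When 1 library was left out the number rose to between 571 and 656, since fewer libraries have to agree. Ctr lay near Raver2 knockdown only in 51 of the 234 events and near Setd2 knockdown only in 56.

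Some end-of-scale events had wide gaps without passing, and those that follow were picked after their values were seen. Syn1, a protein of synaptic vesicles, was below 0.01 in both Raver2 libraries and at 0.926 and above 0.99 in the Setd2 libraries (limma, adjusted p = 0.0658), with the Ctr libraries at 0.988 and below 0.01. Pomgnt2, an enzyme that glycosylates dystroglycan, was 0.891 and 0.904 under Raver2 knockdown and below 0.01 in both Setd2 libraries (adjusted p = 0.0561), and its Ctr libraries lay between, at 0.398 and 0.452. Event 3 of Ush1c, a scaffold of hair cells and brush borders, was below 0.01 against 0.880 and 0.866 (adjusted p = 0.0595). In Syn1, Pomgnt2 and Ush1c the targets were thus as far apart as in many called events. Sbsn and Ager, genes of epithelia, had wider hairpins. Sbsn, a secreted protein of the epidermis, was 0.187 and 0.314 under Raver2 knockdown and above 0.99 and at 0.944 under Setd2 knockdown, with Ctr at 0.324 and 0.382 (adjusted p = 0.147). Event 1 of Ager, a receptor for glycated proteins that marks lung alveoli, was above 0.99 in both Raver2 libraries and 0.00142 and 0.135 in the Setd2 libraries, with Ctr at 0.636 and below 0.01 (adjusted p = 0.103).

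Mid-range events are less open to the all-or-nothing values at the end of the scale, and fewer of them had a wide gap. The lower share is partly set by the definition, since a full switch cannot be mid-range. Their median absolute difference was 0.0285, against 0.0260 over all events. Of the 48 with a gap of at least 0.1 (2.13%), 26 were higher and 22 lower under Raver2 knockdown, and 3 repeat an earlier event. None of the 48 passed the test. Fitted alone, the 2251 mid-range events gave 0 calls (limma; 116 with an unadjusted p under 0.05, smallest adjusted p 0.812). The values that follow therefore describe these 4 libraries.

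Tnip1, an inhibitor of NF-kB signalling, had event 5 at 0.855 and 0.749 under Raver2 knockdown and at 0.373 and 0.415 under Setd2 knockdown, a difference of 0.408 ± 0.0575 (SE; limma, adjusted p = 0.337). The Ctr libraries of Tnip1 event 5 were at 0.342 and 0.594. Pias3, a SUMO ligase that restrains STAT3, was 0.671 and 0.463 under Raver2 knockdown and 0.185 and 0.223 under Setd2 knockdown. Its Ctr libraries, at 0.538 and 0.541, lay within the range of the Raver2 libraries. Rbpms, an RNA-binding protein and splicing regulator of muscle, had event 1 at 0.391 and 0.336 against 0.123 and 0.181, with Ctr at 0.321 and 0.332. For Pias3 and Rbpms it was the Setd2 libraries that stood apart from the other 4.

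Sin3a, the scaffold of a histone deacetylase complex, was 0.527 and 0.617 under Raver2 knockdown and 0.344 and 0.336 under Setd2 knockdown, and its Ctr libraries were wide apart at 0.122 and 0.473. Ace, the angiotensin-converting enzyme, was 0.668 and 0.579 against 0.249 and 0.370, with both Ctr libraries lower than all 4, at 0.133 and 0.169. Serpinb6a, an intracellular protease inhibitor, had event 3 at 0.858 and 0.780 against 0.552 and 0.451. The receptors Gpr19 (event 2) and Gpr160 (event 6) and the sperm protein Cabyr (event 2) also had both Raver2 libraries above both Setd2 libraries. The widest of these gaps was that of Gpr19, at 0.982 and 0.765 against 0.191 and 0.291, where the Ctr libraries were more than 0.5 apart.

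In the other direction, Arid5a, an RNA-binding protein that stabilises inflammatory transcripts, had event 1 at 0.253 and 0.371 under Raver2 knockdown and 0.673 and 0.632 under Setd2 knockdown. Its Ctr libraries lay between the targets, at 0.4999 and 0.494. Ccnd3, a D-type cyclin, was 0.158 and 0.113 against 0.330 and 0.329, a difference of -0.194 ± 0.0273 (SE; limma, adjusted p = 0.337), with Ctr at 0.181 and 0.353. Pacsin1, a membrane-bending protein of endocytosis, had event 1 at 0.392 and 0.428 against 0.763 and 0.682, with both Ctr libraries higher than all 4, at 0.999 and 0.953. Ace and Pacsin1 thus had Ctr values outside the range of both knockdowns.

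Smagp, a small membrane glycoprotein of epithelia, had event 3 at 0.171 and 0.188 under Raver2 knockdown and 0.413 and 0.366 under Setd2 knockdown, with Ctr between the 2 ranges at 0.270 and 0.303. Fam160a2, a partner of the Hook proteins of endosome transport, had event 3 at 0.509 and 0.493 against 0.754 and 0.721. Camk2b, a calcium-dependent kinase, had event 1 at 0.185 and 0.324 against 0.458 and 0.542. Its event 4 was the complement, at 0.815 and 0.676 against 0.542 and 0.458. Sh2b1 event 2, Szrd1 event 2 and Zfp180 event 4 also had both Raver2 libraries below both Setd2 libraries, by the choice of events.

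Further mid-range events combined a gap of 0.1 with close hairpins, though none passed. Rpl34, a protein of the large ribosomal subunit, was 0.676 and 0.688 under Raver2 knockdown and 0.544 and 0.553 under Setd2 knockdown, with Ctr at 0.713 and 0.663 (limma, adjusted p = 0.544). Ncoa2, a coactivator of nuclear receptors, was 0.774 and 0.806 against 0.935 and 0.921, with Ctr at 0.750 and 0.739 (adjusted p = 0.231). In Rpl34 and Ncoa2 the Ctr libraries lay near the Raver2 libraries. Event 2 of Aifm2, an oxidoreductase that suppresses ferroptosis, was 0.612 and 0.609 against 0.735 and 0.716, and its Ctr libraries, at 0.652 and 0.710, fell between. Pkp4, a plakophilin of cell junctions, was 0.236 and 0.193 against 0.358 and 0.357, and its Ctr libraries were higher than all 4, at 0.480 and 0.544. Spg20, which encodes the endosomal protein spartin, was 0.728 and 0.684 against 0.557 and 0.567. Lgals3, a galectin of epithelia and macrophages, was 0.760 and 0.721 against 0.514 and 0.572, with Ctr at 0.670 and 0.890. Of these 6 genes, Rpl34, Spg20 and Lgals3 had more inclusion in the Raver2 libraries, and Ncoa2, Aifm2 and Pkp4 in the Setd2 libraries.

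**Figure D4:**
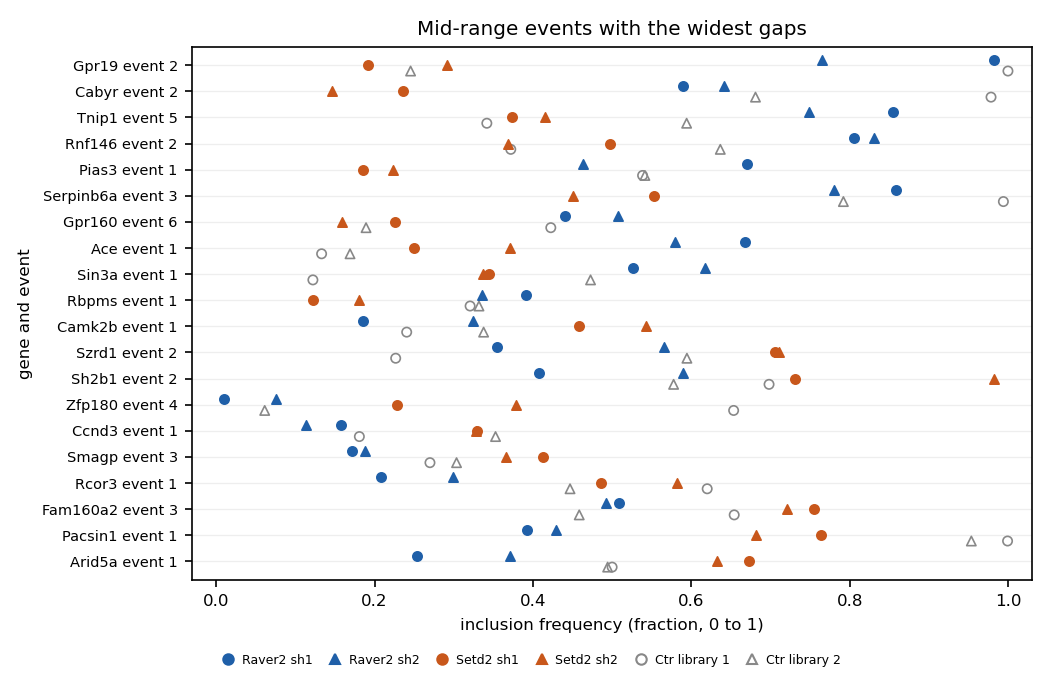
Inclusion frequency (fraction, x axis) in each library of the 10 mid-range events with Raver2 knockdown higher and the 10 with it lower that have the widest gaps (y axis). Filled blue symbols are Raver2 knockdown, filled orange symbols Setd2 knockdown and open grey symbols Ctr. The blue and orange symbols of a row do not overlap by the choice of events, and the Ctr symbols lie on either side, between or outside them.

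Events of a gene did not always move together. Of the 181 genes with a gap of at least 0.1, 111 had several events, and 21 had events in both directions. Rtn3 and Camk2b are among these 21, and their opposite events are complements, which differ in opposite directions by definition. How many of the 21 hold such pairs was not counted. Rnf146, a ubiquitin ligase that reads poly-ADP-ribose, had 4 events. Event 1 was below 0.01 in both Raver2 libraries and 0.616 and 0.651 in the Setd2 libraries, with Ctr at 0.641 and 0.616 (limma, adjusted p = 0.0759). Event 3 was likewise below 0.01 in both Raver2 libraries and 0.733 and 0.876 in the Setd2 libraries, with Ctr at 0.759 and 0.791 (adjusted p = 0.164). Event 2 ran the other way, at 0.805 and 0.830 against 0.497 and 0.369. Event 4 of Rnf146 was 0.740 and 0.844 against 0.629 and 0.689. In events 1 and 3 of Rnf146 the Raver2 libraries stood apart from the other 4, although neither event passed.

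Repin1, a zinc finger gene (chromosome 6, 48593883 to 48599082), was called in event 4, at 0.0109 and 0.000243 under Raver2 knockdown and 0.121 and 0.125 under Setd2 knockdown, with Ctr at 0.164 and 0.321. Its event 3 was 0.988 and 0.874 against below 0.01 in both Setd2 and both Ctr libraries, and event 2 was 0.716 and 0.620 against 0.388 and 0.474. Neither of these passed (limma, adjusted p = 0.102 and 0.702). In Tnip1 the difference of event 5 had no counterpart in events 1 and 4, which were at the same end of the scale in all 4 libraries, nor in event 6, at 0.576 and 0.588 against 0.555 and 0.590. Event 2 of Tnip1 was 0.0328 and 0.0444 against 0.157 and 0.110, and event 3 was 0.964 and 0.947 against 0.848 and 0.872. The panels for Rnf146, Tnip1, Nfatc2 and Repin1 show these events side by side.

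**Figure D5:**
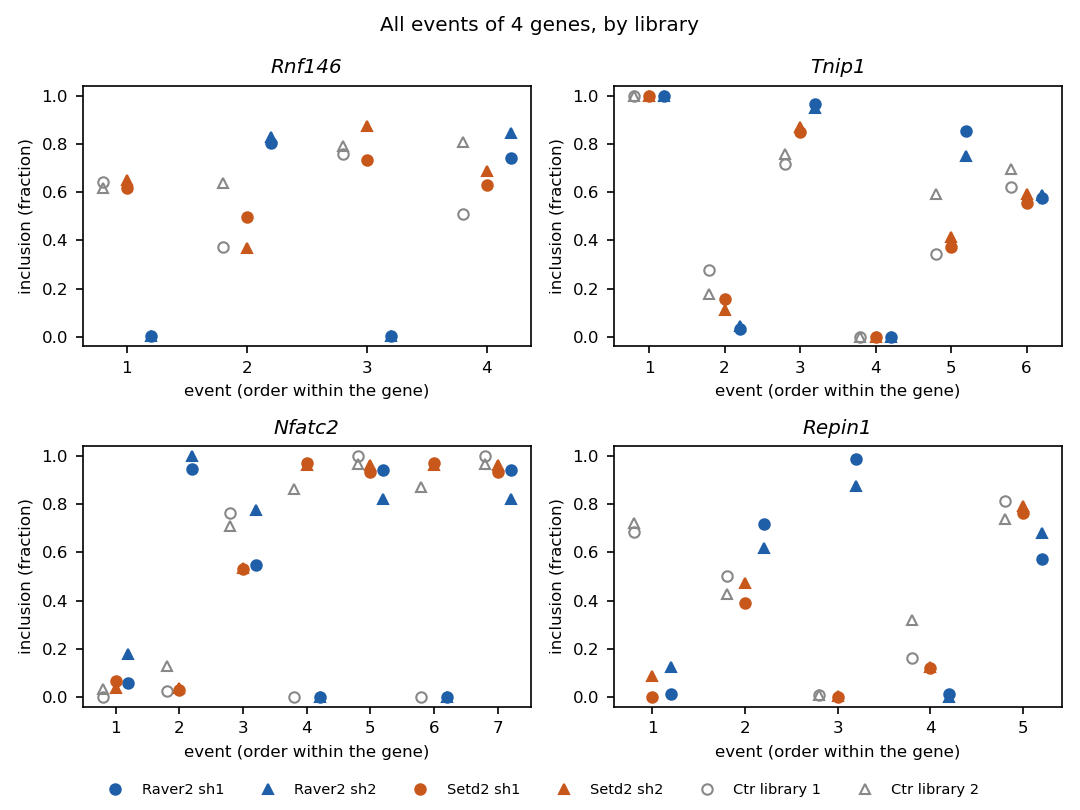
Inclusion frequency (fraction, y axis) of every event (x axis, order within the gene) of Rnf146, Tnip1, Nfatc2 and Repin1 in each library. Filled blue symbols are Raver2 knockdown, filled orange symbols Setd2 knockdown and open grey symbols Ctr. Events 1 and 3 of Rnf146 are near 0 in both Raver2 libraries alone, and events 4 and 6 of Nfatc2 split the Ctr libraries.

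Genes tied to the known partners of the targets gave no call. In the list of PTB, hnRNP and Raver partners, 15 genes with 47 events were compared, and limma called 0 (0.983% over all events; 2 with an unadjusted p under 0.05). The median difference of that list was 0.00283, and its median absolute difference was 0.0152, against 0.0260 over all events. Mid-range events made up 78.7% of that list, against 48.1% of all events, and only 0.0444% of all mid-range events were called. Ptbp1, the gene of PTB, had event 1 at 0.238 and 0.257 under Raver2 knockdown and 0.231 and 0.259 under Setd2 knockdown (limma, adjusted p above 0.99). Event 2 of Ptbp1 was 0.880 and 0.860 against 0.905 and 0.879. Tardbp, which encodes the RNA-binding protein TDP-43, had event 3 at 0.302 and 0.259 against below 0.01 and 0.0895, without passing (adjusted p = 0.473). The targets overlapped in both events of Ptbp1 and stood apart in Tardbp event 3.

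SR proteins and splicing factors gave 0 limma calls in 44 events of 24 genes (3 with an unadjusted p under 0.05). Luc7l2, a protein of the U1 snRNP, was 0.874 and 0.850 under Raver2 knockdown and above 0.99 in both Setd2 libraries, with Ctr above 0.99 and at 0.893 (limma, adjusted p = 0.119). Enzymes, readers and modifiers of chromatin, the list that holds the H3K36 methylation genes, gave 0 calls in 61 events of 27 genes (2 with an unadjusted p under 0.05), and none of the 61 had a gap of 0.1. Rcor3 and Sin3a, described above, are chromatin genes that this list does not hold. Exons linked to PTB or to H3K36 methylation, known here by gene only, gave 0 calls in 82 events of 33 genes (2 with an unadjusted p under 0.05). Tcf7l2, a Wnt pathway transcription factor of that list, had event 6 below 0.01 in both Raver2 libraries and at 0.551 and above 0.99 in the Setd2 libraries, with Ctr at 0.444 and 0.576 (adjusted p = 0.674). In these 4 lists of splicing and chromatin genes, Tardbp (events 2 and 3), Luc7l2 and Tcf7l2 held every event with a gap of 0.1. Over all events 0.983% were called, 6.92% had an unadjusted p under 0.05 and 5.0% had a gap of 0.1. In mid-range events 0.0444% were called and 2.13% had a gap of 0.1. Such events made up 79.5% of the SR and splicing factor list and 82.0% of the chromatin list, against 48.1% of all events. At such shares a count of 0 calls in a list of this size is near the background and is not a result about the list, here and for the lists of mTEC and antigen genes.

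Regulators of mTEC identity, MHC genes and antigen processing genes gave 0 limma calls in 26 events of 11 genes (3 with an unadjusted p under 0.05), and no gap of 0.1. Aire had 9 events. Event 2 was 0.190 and 0.168 under Raver2 knockdown and 0.118 and 0.110 under Setd2 knockdown, and both Ctr libraries were below 0.01 (limma, adjusted p = 0.457). Event 3 was 0.892 and 0.890 against 0.925 and 0.933, with both Ctr libraries above 0.99 (adjusted p = 0.259). In both events the Raver2 libraries lay farther from Ctr than the Setd2 libraries did, by less than 0.1. Event 1 was 0.108 and 0.122 against 0.0846 and 0.0677, with both Ctr libraries below 0.01. The other 6 events did not show that order. In event 8 the targets overlapped, at 0.887 and 0.860 against 0.922 and 0.835, with Ctr above 0.99. Events 4 and 9 held the same values, 0.997 and 0.885 against 0.873 and 0.9899, and both Ctr libraries were above 0.99. In event 7 the hairpins of each target, and the Ctr libraries, were at opposite ends of the scale, and events 5 and 6 were above 0.98 in all 6 libraries. None of the 9 passed. The list of tissue-restricted antigens gave 0 calls in 22 events of 12 genes (0 with an unadjusted p under 0.05).

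Called events were found in 10 of the 21 lists, against 0.983% of all events called. The actin, myosin and membrane skeleton list held 4 of them in 87 events of 36 genes (4.598%), 3 higher under Raver2 knockdown (Ank1 events 1 and 5 among them) and 1 lower (Pdlim5). Its median absolute difference was 0.00644, against 0.0260 over all events, so most of its events differed little. Mitochondrial and metabolic enzymes held 3, all lower, in 48 events (6.25%), and genes of T cells, B cells and myeloid cells held 3 in 73 events (4.11%), 1 higher and 2 lower. Ubiquitin ligases and deubiquitinases held 3 in 104 events (2.88%), of which Rnf32 gave every one. The called genes Ubox5, Espn, Daam1 and Acsm3, described above, are not held by these lists. A share is thus that of the list and not of all genes of its kind. These lists were drawn up with earlier results of these libraries known, so their counts are descriptions.

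Predicted and unnamed genes had the largest share of events with a gap of 0.1 among the lists, 11.3% of 204 events (11 higher and 12 lower), against 5.0% over all events. Only 29.4% of their events were mid-range, against 48.1% of all events. Microtubule genes, Golgi and vesicle genes, genes of the extracellular matrix, translation genes and protein kinases and phosphatases gave 0 limma calls. An unadjusted p under 0.05 was found in 5 of 55, 5 of 74, 3 of 35, 2 of 39 and 5 of 114 events of these lists, in that order, near the 6.92% of all events. In the matrix list, Bmp1, a protease that matures procollagen, had events 1 and 2 with the same values, 0.218 and 0.222 under Raver2 knockdown and 0.109 and 0.0994 under Setd2 knockdown (limma, adjusted p = 0.115). Among kinases and phosphatases, Dusp16, a phosphatase of MAP kinases, was 0.885 and 0.872 under Raver2 knockdown and above 0.99 in both Setd2 libraries, close to the threshold (adjusted p = 0.0547). Kcnk13, a potassium channel, had event 1 at 0.712 and 0.717 against below 0.01, with Ctr at 0.0310 and 0.0251 (adjusted p = 0.0708).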

How the data were processed

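The inclusion frequency of each alternative splicing event, a fraction from 0 to 1, was deposited by the authors as a table of gene symbols and fractions per library. The submitters' processing notes name Trimmomatic 0.39, TopHat2, Cufflinks and the mouse build mm10. How the fraction was computed, which events were kept and the depth: not given in the sources used here.

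Events were joined by gene and order within the gene. Between libraries, fractions at the same position correlated at 0.771 to 0.801 (Pearson, genes with several events), and at 0.102 to 0.118 when one library was moved by 1 event, so the order was kept. Limma 3.58.1 (R 4.3.3) was fitted to the fractions of the 4 libraries with a mean per target, a variance trend and two-sided contrasts, with Benjamini-Hochberg adjustment over 4679 events at 0.05. With 2 libraries per target, errors written ± are moderated standard errors of that fit, which shares variance between events. Library means were compared by exact permutation. Positions are those of the gene in GENCODE M21, matched by symbol for 2616 of 2703 genes. Python 3.11.15, pandas 2.3.3, numpy 2.4.6 and matplotlib 3.10.9 were used.

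The members, lists and tests were chosen with earlier results of these data known. The rule named the 15 higher and 15 lower called events by moderated t, the 10 widest mid-range gaps and the 8 widest end-of-scale gaps in each direction, up to 4 events of each of 21 lists, and Raver2, Setd2, Raver1, Ptbp1, Ptbp2 and Aire. Named outside it, after their values were seen, were Ank1 event 1, Acsm3 event 2, Espn event 3, Rnf32 events 1 and 2, Ranbp3, Repin1 events 2 to 4, Prnd event 2, Nfatc2 events 2 and 4, Rnf146 events 3 and 4, the events of Tnip1 other than 5, Camk2b event 4, Tardbp event 2, repeats of another event, Syn1, Pomgnt2, Ush1c, Sbsn, Ager, Rpl34, Ncoa2, Aifm2, Pkp4, Spg20, Lgals3, Casc4, Gm3286 and Rad52 event 1. Of the called events, 1 that met the rule is counted but not reported here. Alternatives were the scale of the fraction, the variance model, all 6 libraries in the fit, filters on events, a hairpin block and each library left out.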

Additional observations from a re-analysis of the deposited data

How the results depend on the processing

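The 46 calls became 67 on the arcsine square root scale, 83 on the logit scale (38 higher and 45 lower under Raver2 knockdown), 47 without a variance trend, 49 with robust empirical Bayes, 45 without events identical in all libraries and 34 with all 6 libraries in the fit (19 higher and 15 lower). Of the 46, 44, 43, 40, 42, 45 and 18 were called again in these, in that order. Limma called 0 among mid-range events only (116 with an unadjusted p under 0.05), 0 without repeated events (307), 0 in genes with 1 event (110) and 0 with the hairpin number as a replicate block (268). The smallest adjusted p was 0.812, 0.0539, 0.0563 and 0.510 in these. The labels do not say whether same-numbered hairpins shared a preparation. Their deviations correlated at 0.0154 (0.0458 in mid-range events), which cannot settle whether they did. With 1 library left out the calls ranged from 0 to 149 and those kept from 0 to 8, under the assumption that a lone library varies like the others; the balance turned to 84 higher and 65 lower without Raver2 sh1 and to 75 and 58 without Raver2 sh2. No called event was called in more than 7 of the 14 alternatives. Each was tested in 11 to 13 of them, since filters on events left it out of the others. The mean difference of 0.00566 turned to -0.000976 among mid-range events and ranged from 0.00209 to 0.00923 with 1 library left out. The 234 events with a gap of 0.1 became 48 in mid-range, 73 in genes with 1 event, 394 with a gap of 0.05, 134 with a gap of 0.2 and 571 to 656 with 1 library left out. Of single events named, 2 changed sign with 1 library left out: Ptbp1 event 1 ranged from -0.0120 to 0.0168 (-0.00669 without Raver2 sh2) and Tnip1 event 6 from -0.00867 to 0.0271. Where a call was lost, the cause was not tested beyond the smaller number of libraries or events. The depth behind the fractions is unknown and limits every value at the end of the scale.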

Other observations

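Some genes had events listed under one knockdown only. In both Raver2 libraries and neither Setd2 library, 18 genes were listed, 10 of which were also listed in both Ctr libraries. The reverse held for 3 genes, 2 of them in both Ctr libraries. These are few of the 2879 genes listed in any of the 4 libraries. The Setd2 libraries listed fewer genes in all, 2805 and 2765, against 2825 and 2823 in the Raver2 libraries. The part of that difference in the counts of 18 and 3 was not tested. The first group held Wdr17, a WD repeat gene, at 0.878 and 0.890 under Raver2 knockdown, and Musk, the receptor kinase of the neuromuscular junction, with event 1 at 0.0108 and 0.0113. It also held Folh1, a folate hydrolase of prostate and gut, and Ces2a, a carboxylesterase, both below 0.01. The second group was Acr, the acrosin of sperm, Dao, an oxidase of D-amino acids, and Glycam1, an adhesion ligand of lymph node vessels. In each of these 3 genes the Setd2 hairpins differed by more than 0.9 in event 1. The Raver2 hairpins did so in Theg and Tmem54 of the first group, and in Tsks event 1 was 0.503 and below 0.01. A gene that is not listed has no fraction, and no expression level was used here, so these are values of listing and not of splicing.

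The Raver2 hairpins lay more than 0.5 apart in 302 events, the Setd2 hairpins in 348 and both in 93. In mid-range events the Raver2 hairpins lay more than 0.2 apart in 127 events, the Setd2 hairpins in 192 and the means of the targets in 81. All 4 libraries were below 0.01 in 544 events and above 0.99 in 210.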
